A study of Mus musculus with 6 samples.

Results

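The proliferation genes examined here are 48 genes of DNA replication, mitosis and the G1/S step of the cell cycle, chosen by symbol from the 35976 rows of the deposited count table. All 48 were in the table, and all 48 passed the expression filter that left 14542 genes for testing. They were grouped by role into 8 G1/S genes, 15 replication genes, 22 mitosis genes and 3 inhibitors of cyclin-dependent kinases (CDKs). The data are RNA-seq of whole brown adipose tissue (BAT), the heat-producing fat, from 3 sST2-KO mice and 3 wild-type (WT) littermates. The mice were 10-week-old males on a C57BL/6J background. In sST2-KO mice an intronic stretch of Il1rl1, lying between its exons 8 and 9, had been cut out of the germ line with CRISPR/Cas9. The allele was made to deplete the soluble receptor sST2 and to keep the membrane receptor ST2L. The paper reports lower sST2 in plasma and in epididymal white fat, with ST2L unchanged in that fat. The sequenced libraries carry the label ST2-KO. BAT had been denervated by surgery in both groups, and all 6 mice were kept at 30 °C for 7 days and then at 10 °C for 8 h. No library without denervation or without cold was analysed here, so the comparison is between genotypes under these shared conditions.

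A cell enters the division cycle when D-type cyclins with Cdk4 or Cdk6, and then cyclin E with Cdk2, inactivate the retinoblastoma proteins and free the E2F transcription factors. E2F factors switch on the genes that license, copy and supply DNA replication. Later in the cycle, Foxm1 and the B-Myb (Mybl2) complex switch on the genes of mitosis, among them the cyclins A and B, Cdk1, the mitotic kinases and the kinetochore proteins. CDK inhibitors such as p21 (Cdkn1a) and p27 (Cdkn1b) hold the cycle back. Mature brown adipocytes seldom divide, and in BAT cycling cells are known among progenitors, endothelial cells and immune cells. In bulk tissue the RNA of these cells is pooled, so a larger number of cycling cells and more of these transcripts per cell cannot be told apart.

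The counts per library summed to between 8159442 and 12874809. The 48 genes together took 0.108% to 0.141% of the counts in WT libraries and 0.159% to 0.206% in sST2-KO libraries, as shares of the total counts without TMM scaling. Levels are given as CPM, counts scaled to the library size with TMM factors, where 1 CPM stood for 8.11 to 14.3 counts depending on the library. On this scale the summed level of the 48 genes was 1087, 1537 and 1333 CPM in WT and 1423, 1879 and 1811 CPM in sST2-KO, and the groups overlapped, since WT replicate 2 lay above sST2-KO replicate 1. Cdkn1a alone had 469, 945 and 823 CPM of the WT sums. Differences are log2 fold changes of sST2-KO against WT from the quasi-likelihood test of edgeR, and adjusted p values are its Benjamini-Hochberg values over all genes tested. Values by library follow the order of replicates 1 to 3. A gene is called when its adjusted p is under 0.05 and its fold change above 2. All 10 brown adipocyte markers had counts in every library, but their summed level was between 8916 and 16738 CPM in WT libraries and between 425 and 2136 CPM in sST2-KO libraries, where 9 of the 10 were called lower. Nothing in the labels says how the mice were distributed over litters or days. The p values weigh the difference between genotypes against the spread within the groups, and rest on these 6 mice.

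Mitosis genes rose most widely in the BAT of sST2-KO mice, replication genes rose in part, G1/S genes rose for E2f1 and cyclin E1 and the CDK inhibitors on the list did not pass the test. Of the 48 genes, 30 were called higher by edgeR, where 9.04% of all genes tested were called higher. DESeq2 called 33 of the 48 higher, where it called 9.72% of all genes with an adjusted p higher and 7.64% lower. These were the same 30 genes and Ccnd2, Gins2 and Tk1 (adjusted p = 0.0225, 0.0454 and 0.0143 by DESeq2). None of the 48 was called lower by edgeR or DESeq2, where edgeR called 7.10% of all genes tested lower. At an unadjusted p under 0.05 by edgeR, 0 of the 48 had a negative fold change, against 2423 of the 14542 genes tested. The 30 genes were 21 of the 22 mitosis genes, 7 of the 15 replication genes, 2 of the 8 G1/S genes and 0 of the 3 inhibitors. The median log2 fold change was 1.78 for mitosis (quartiles 1.47 and 1.92), 1.09 for replication (quartiles 0.77 and 1.54) and 0.88 for G1/S (quartiles 0.46 and 1.25), beside 0.034 for all genes tested. In 39 of the 48 genes all 3 sST2-KO values lay above all 3 WT values, which held for 21.8% of all genes tested. These were 22 mitosis genes, 14 replication genes and 3 G1/S genes. The calls depended on single libraries. Without WT replicate 1, 2 or 3 the members called higher numbered 19, 9 and 1, and without sST2-KO replicate 1, 2 or 3 they numbered 31, 15 and 12. Calls over all genes moved too, with 1105, 391 and 36 called higher without WT replicate 1, 2 or 3. Without sST2-KO replicate 1, 2 or 3 they were 1383, 1042 and 683, and these fits tested between 14742 and 15085 genes. The 30 genes stayed higher in each of these fits, with log2 fold changes between 0.93 and 2.55, while their adjusted p rose to between 0.0482 and 0.161 without WT replicate 3.

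**Figure D1:**
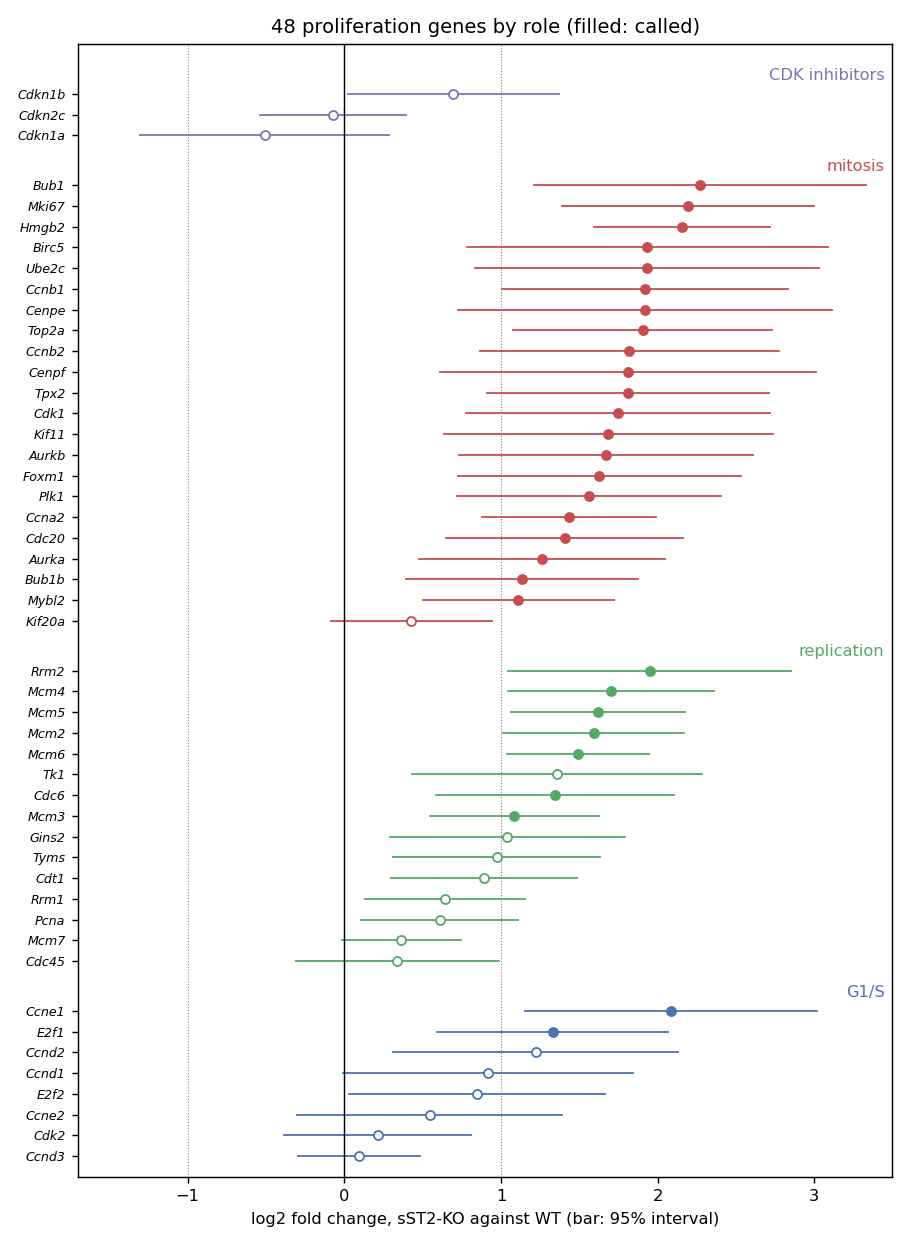
Log2 fold change of each of the 48 proliferation genes in sST2-KO against WT BAT (x axis, log2 scale), grouped by role. Bars are 95% intervals from edgeR's fit, filled points are called genes, and dotted lines mark a 2-fold change: 21 of 22 mitosis points are filled, against 7 of 15 for replication, 2 of 8 for G1/S and 0 of 3 for the inhibitors.

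Averaged over the genes of each role, every sST2-KO library lay above every WT library in all of the 3 phases. The mean log2 CPM of the 22 mitosis genes was 2.39, 2.37 and 1.63 in WT and 3.37, 3.73 and 4.23 in sST2-KO. For the 15 replication genes it was 3.36, 3.41 and 3.13 in WT and 4.13, 4.51 and 4.61 in sST2-KO. For the 8 G1/S genes the values were 3.72, 3.36 and 3.15 in WT and 4.03, 4.33 and 4.52 in sST2-KO. The distance between the groups was 1.65 for mitosis, 1.12 for replication and 0.88 for G1/S on this log2 scale. Taken within each library, the mitosis mean minus the replication mean was -0.97, -1.03 and -1.50 in WT and -0.76, -0.78 and -0.39 in sST2-KO. Mitosis transcripts were therefore nearer to replication transcripts in each sST2-KO library than in any WT library, by 0.53 between the group means, and this difference was not tested. Within the groups, sST2-KO replicate 3 had the highest sST2-KO value in 21 of the 22 mitosis genes, and WT replicate 3 had the lowest WT value in 19 of them. The replication genes were spread more evenly, with the highest sST2-KO value in replicate 3 for 8 genes and in replicate 2 for 7. These libraries also stood at the ends of the brown adipocyte list. Its sums were 8916, 11317 and 16738 CPM in WT and 703, 2136 and 425 CPM in sST2-KO. The order did not hold throughout, since sST2-KO replicate 1 was lowest of its group for mitosis but between the others on this list.

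**Figure D2:**
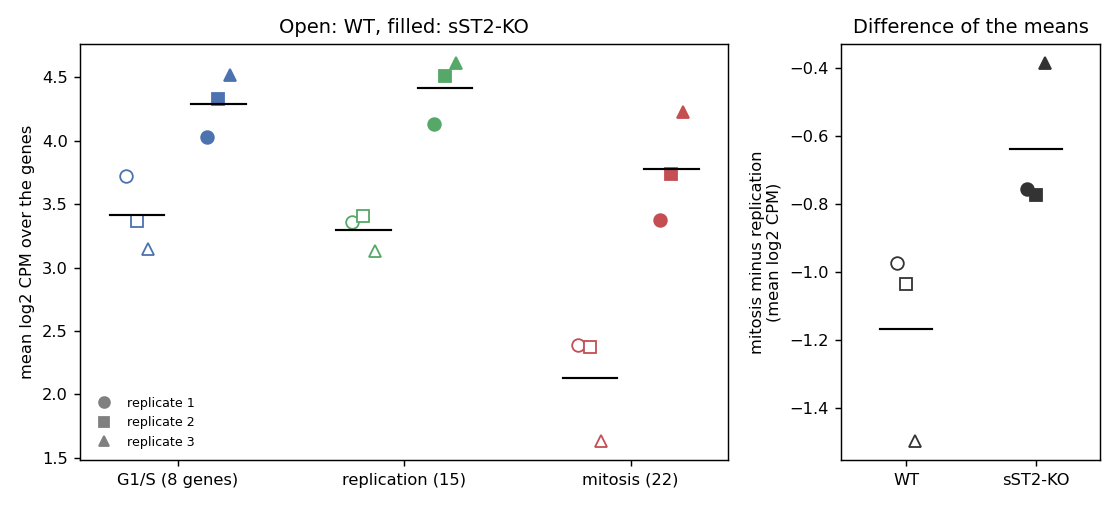
Mean log2 CPM over the genes of each phase in every library (left, y axis) and the mitosis mean minus the replication mean (right), with open symbols for WT, filled symbols for sST2-KO, a symbol shape for each replicate number and a line at the group mean. All 3 sST2-KO libraries lie above all 3 WT libraries in each column, and WT replicate 3 is lowest and sST2-KO replicate 3 highest for mitosis.

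The promoters of the genes were searched for short letter patterns known from replication and mitosis genes, and the shares are given as a description without a test. RefSeq promoters on GRCm38.p6, from 250 bases before to 50 bases after an annotated start, were at hand for 38 of the 48 genes. The E2F letters searched were TTTCCCGC, TTTCGCGC, TTTGGCGC, TTTGCCGC, TTCCCGCC, TTCGCGCC, TTGGCGCC and TTGCCGCC on either strand, which overlap each other and, in part, CCAAT. They were in 7 of 13 replication promoters (53.8%) and in 2 of 17 mitosis promoters (11.8%), against 5.98% of the promoters of all 27025 genes. The letters of the CHR element, TTTGAA or TTTAAA on either strand, through which the B-Myb and Foxm1 complex binds, were in 15 of 17 mitosis promoters (88.2%), in 5 of 13 replication promoters (38.5%) and in 30.6% of all. Within 50 bases of the start, a window chosen after the positions were seen, these letters were in 13 of 17 mitosis promoters (76.5%), in 2 of 13 replication promoters (15.4%) and in 9.54% of all. CCAAT, the box bound by NF-Y, was in 15 of 17 mitosis promoters (88.2%), in 9 of 13 replication promoters (69.2%) and in 41.1% of all. A match is a run of letters and does not show that a factor was bound. A pair of replication promoters and a set of mitosis promoters are printed here, from 170 bases before to 30 bases after the start, because their genes rose and carry these letters, and capitals mark the E2F, CHR and CCAAT letters.
Mcm6 (chr1:128359676-128359875, minus strand): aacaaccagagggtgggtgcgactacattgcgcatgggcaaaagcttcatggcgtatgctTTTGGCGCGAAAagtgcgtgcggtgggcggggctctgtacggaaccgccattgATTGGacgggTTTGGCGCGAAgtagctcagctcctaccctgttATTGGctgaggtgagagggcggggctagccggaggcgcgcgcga
Mcm5 (chr8:75109339-75109538, plus strand): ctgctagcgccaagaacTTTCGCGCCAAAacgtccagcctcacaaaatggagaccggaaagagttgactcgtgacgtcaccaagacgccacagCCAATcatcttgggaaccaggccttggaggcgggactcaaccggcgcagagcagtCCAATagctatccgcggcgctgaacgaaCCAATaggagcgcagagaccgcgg
Cdk1 (chr10:69352883-69353082, minus strand): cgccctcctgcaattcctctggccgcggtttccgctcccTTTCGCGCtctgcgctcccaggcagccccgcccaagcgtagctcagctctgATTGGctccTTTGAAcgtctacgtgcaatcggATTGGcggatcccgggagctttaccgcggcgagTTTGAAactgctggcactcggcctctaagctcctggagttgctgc
Ccnb1 (chr13:100786457-100786656, minus strand): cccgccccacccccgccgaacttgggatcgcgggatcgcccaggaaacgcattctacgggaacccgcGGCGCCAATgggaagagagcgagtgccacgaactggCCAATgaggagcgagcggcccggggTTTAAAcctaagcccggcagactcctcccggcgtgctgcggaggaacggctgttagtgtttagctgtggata
Top2a (chr11:99024160-99024359, minus strand): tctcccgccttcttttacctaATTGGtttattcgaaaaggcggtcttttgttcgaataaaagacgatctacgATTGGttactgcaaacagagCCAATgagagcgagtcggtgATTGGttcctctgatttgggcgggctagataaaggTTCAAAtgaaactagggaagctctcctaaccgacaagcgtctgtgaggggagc
Mki67 (chr7:135716350-135716549, minus strand): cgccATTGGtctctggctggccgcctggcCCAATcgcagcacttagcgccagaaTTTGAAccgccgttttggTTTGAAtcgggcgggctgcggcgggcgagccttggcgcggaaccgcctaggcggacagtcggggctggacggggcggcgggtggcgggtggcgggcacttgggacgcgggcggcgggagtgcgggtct
Mcm6 and Mcm5 hold E2F letters, in Mcm6 at 2 places, and no CHR letters in this window. Cdk1 and Ccnb1 hold all 3 patterns, and in Ccnb1 the E2F letters run into the CCAAT box. Top2a and Mki67 hold CHR and CCAAT letters without E2F letters. In Mki67 the CHR letters nearest to the start lie further from it than the nearest ones in Cdk1 and Top2a.

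**Figure D3:**
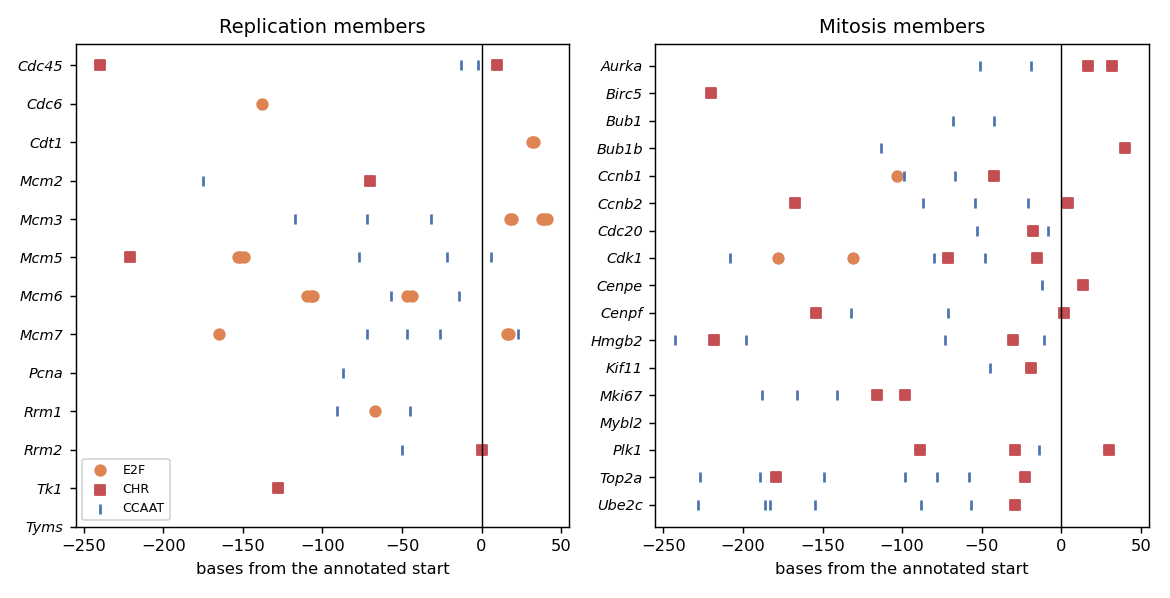
Distance in bases of each E2F, CHR and CCAAT match from the annotated start (x axis) for the replication members (left) and mitosis members (right) whose RefSeq promoters were at hand, 1 line per gene. CHR squares gather near the start in mitosis members, where 13 of 17 have a match within 50 bases, and E2F circles appear in 7 of 13 replication members.

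Among the mitosis genes, Bub1, Mki67 and Hmgb2 rose more than 4-fold and Top2a slightly less. Mki67, which encodes the Ki-67 protein that coats mitotic chromosomes, lies on chromosome 7 from 135291513 to 135318299 on the minus strand (GRCm39). It had 12.6, 10.5 and 4.81 CPM in WT and 41.9, 37.1 and 49.3 CPM in sST2-KO. All sST2-KO libraries were far above the WT libraries, for a log2 fold change of 2.19 (SE 0.35, adjusted p = 0.0139 by edgeR). It was the member whose adjusted p stayed under 0.05 with each of the 6 libraries left out in turn, at 0.0482 or less. Hmgb2, a chromatin protein abundant in dividing cells, had the lowest adjusted p of the mitosis genes. Its level was 26.9, 26.8 and 24.9 CPM in WT and 93.6, 99.6 and 157 CPM in sST2-KO. The WT libraries lay close together and sST2-KO replicate 3 was highest, with a log2 fold change of 2.16 (SE 0.24, adjusted p = 0.00928 by edgeR, and 0.0563 without WT replicate 3). Bub1, a spindle checkpoint kinase, had the largest fold change of the list, with 1.31, 1.23 and 0.740 CPM in WT and 3.14, 5.22 and 7.80 CPM in sST2-KO. These levels rest on 6 to 14 counts per WT library and 44 to 79 per sST2-KO library, and the log2 fold change was 2.27 (SE 0.45, adjusted p = 0.0187 by edgeR, at most 0.0827 with a library left out). Top2a, the topoisomerase that untangles replicated chromosomes, had 15.3, 10.6 and 7.64 CPM in WT and 26.3, 44.4 and 55.8 CPM in sST2-KO. The groups did not overlap, and its log2 fold change was 1.90 (SE 0.36, adjusted p = 0.0168 by edgeR, and 0.0705 without WT replicate 3).

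The drivers of mitotic entry and exit rose as well. Cdk1, the kinase that starts mitosis, had 4.57, 6.13 and 3.21 CPM in WT and 8.85, 14.95 and 23.3 CPM in sST2-KO, a log2 fold change of 1.75. Its cyclins followed, with log2 fold changes of 1.43 for Ccna2, 1.92 for Ccnb1 and 1.82 for Ccnb2. The mitotic kinases Plk1, Aurka and Aurkb had log2 fold changes of 1.56, 1.26 and 1.67. Foxm1 and Mybl2, the transcription factors of the mitotic program, had log2 fold changes of 1.63 and 1.11, and Mybl2 had the smallest fold change of the genes called in this role. Its level was 3.64, 4.33 and 3.82 CPM in WT and 7.11, 9.37 and 9.08 CPM in sST2-KO (adjusted p = 0.0285 by edgeR). Spindle and kinetochore genes were also called, with log2 fold changes of 1.69 for the motor Kif11, 1.81 for Tpx2, 1.92 for Cenpe, 1.81 for Cenpf, 1.13 for the checkpoint kinase Bub1b and 1.94 for Birc5, which encodes survivin. Genes of the anaphase-promoting complex, which ends mitosis, rose as well, by 1.41 for its activator Cdc20 and 1.93 for its ubiquitin-conjugating enzyme Ube2c. The adjusted p values of all these genes lay between 0.0150 and 0.0467 by the same edgeR test. All of them except Ccna2, Ccnb1, Ccnb2 and Tpx2 lost their call in at least 4 of the 6 leave-one-out fits. Kif20a, a motor of cytokinesis, was the mitosis gene that was not called, with 17.7, 12.3 and 14.1 CPM in WT and 18.6, 18.4 and 22.2 CPM in sST2-KO. Its groups did not overlap but were close, with a log2 fold change of 0.43 (95% interval -0.09 to 0.94, adjusted p = 0.206 by edgeR).

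Reads of overlapping neighbors bear on some of these values, since the sources used here do not state whether the counting used the strand. By the GENCODE vM39 annotation, exons of 26 of the 48 genes overlap a gene on the opposite strand. Kif20a overlaps Brd8 and Cdc23. Ube2c, on chromosome 2 from 164611768 to 164620742, overlaps Tnnc2, a troponin gene of skeletal muscle. Tnnc2 had 50.4, 1.70 and 1.60 CPM in WT and 292, 149 and 659.8 CPM in sST2-KO. Ube2c had 4.94, 5.84 and 2.10 CPM in WT and 9.55, 16.02 and 24.2 CPM in sST2-KO. The share of Tnnc2 reads in the value of Ube2c was not tested. Among 12 skeletal muscle markers, 3 were called higher by edgeR and 5 by DESeq2, beside 9.04% and 9.72% over all genes. In all 12, every sST2-KO value lay above every WT value, which held for 21.8% of all genes tested. Their summed level was 1496, 163 and 173 CPM in WT and 7327, 3932 and 16722 CPM in sST2-KO.

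**Figure D4:**
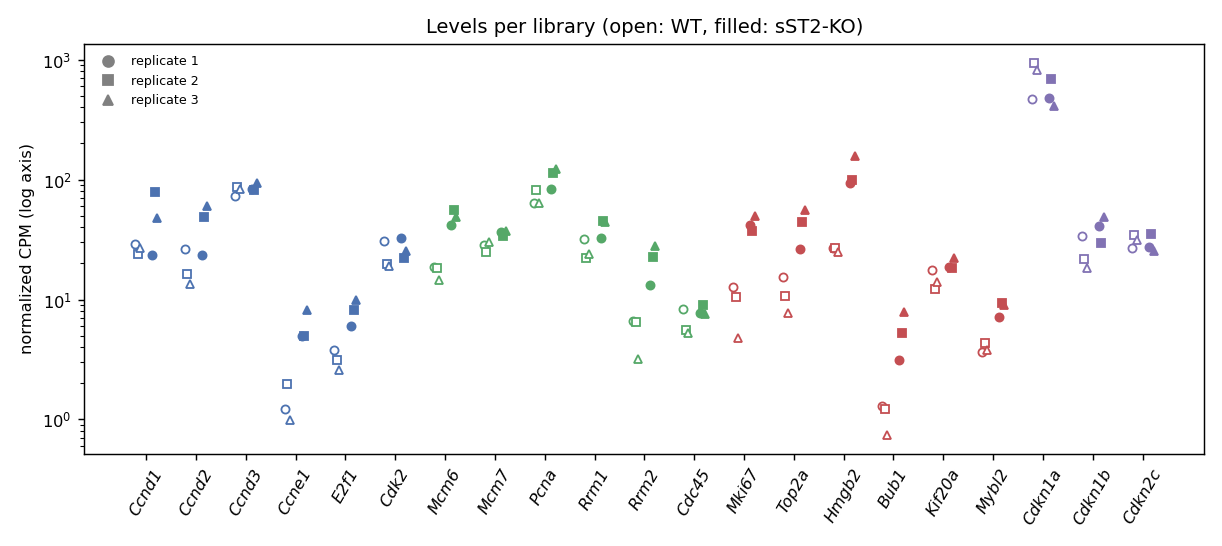
Normalized CPM (log axis) of 21 of the 48 proliferation genes in each library, with open symbols for WT, filled symbols for sST2-KO and a shape for each replicate number. The 3 filled symbols lie above the 3 open ones for Mki67, Top2a, Hmgb2, Bub1, Mcm6 and Rrm2, and mix with them for Ccnd3, Cdk2, Cdc45 and the 3 CDK inhibitors.

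Among the replication genes, the MCM helicase rose in 5 of its 6 subunits. Mcm2 to Mcm7 form the ring that is loaded at origins in G1 and unwinds DNA in S phase. Mcm6, on chromosome 1 from 128259311 to 128287516 on the minus strand (GRCm39), had 18.8, 18.2 and 14.5 CPM in WT and 41.5, 55.3 and 48.4 CPM in sST2-KO. Its groups were clearly apart, with a log2 fold change of 1.49 (SE 0.20, adjusted p = 0.0122 by edgeR, the lowest of the replication genes, and 0.0601 without WT replicate 3). Mcm4 had 13.9, 8.76 and 7.89 CPM in WT and 26.4, 33.9 and 39.3 CPM in sST2-KO, a log2 fold change of 1.70 (SE 0.28, adjusted p = 0.0150, and 0.0650 without WT replicate 3). Mcm2, Mcm3 and Mcm5 rose by 1.59, 1.09 and 1.62 on the log2 scale (adjusted p = 0.0136, 0.0217 and 0.0135 by edgeR). Without WT replicate 3 the adjusted p of each was over 0.05 and at most 0.0762, and Mcm3 also lost its call without WT replicate 1 or 2 or sST2-KO replicate 2 or 3. Mcm7 had 28.3, 25.1 and 29.96 CPM in WT and 36.6, 33.6 and 37.0 CPM in sST2-KO. All its sST2-KO values were above the WT values, but by a log2 fold change of 0.36 only (95% interval -0.01 to 0.74, adjusted p = 0.150). Per kilobase of annotated exon, Mcm7 made up 33.1%, 29.6% and 36.8% of the summed Mcm2 to Mcm7 level in WT and 22.4%, 16.5% and 18.1% in sST2-KO. Its share of the family was thus lower in each sST2-KO library than in any WT library. Exons of Mcm7 overlap Ap4m1 and Cops6 on the opposite strand, and what their reads add to it was not tested.

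Licensing and fork factors changed less evenly. Cdc6, which loads the helicase, had 2.89, 2.92 and 1.60 CPM in WT and 6.13, 6.76 and 6.12 CPM in sST2-KO, a log2 fold change of 1.34 (adjusted p = 0.0304 by edgeR, and over 0.05 without any 1 of the 6 libraries, at most 0.108). Its partner Cdt1 passed the adjusted p but not the fold change of 2, at 0.89 (adjusted p = 0.0470). Gins2, a subunit of the active helicase, had a log2 fold change of 1.04 (adjusted p = 0.0591). Cdc45, its other cofactor, overlapped between the groups, with 8.30, 5.56 and 5.30 CPM in WT and 7.67, 9.02 and 7.60 CPM in sST2-KO. Its log2 fold change was 0.34 (95% interval -0.31 to 0.99, adjusted p = 0.421). Pcna, the sliding clamp of the DNA polymerases, had the highest CPM of the replication genes, with 64.2, 81.8 and 64.0 CPM in WT and 83.0, 114 and 122.9 CPM in sST2-KO. Although its groups did not overlap, sST2-KO replicate 1 was close to WT replicate 2, and the log2 fold change of 0.61 did not pass (SE 0.22, adjusted p = 0.0844).

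The enzymes that supply deoxynucleotides differed within a single complex. Ribonucleotide reductase is made of a large subunit, Rrm1, and a small subunit, Rrm2, whose synthesis is tied to S phase. Rrm2 had 6.62, 6.50 and 3.21 CPM in WT and 13.2, 22.5 and 27.8 CPM in sST2-KO, the largest fold change of the replication genes at a log2 value of 1.95 (SE 0.39, adjusted p = 0.0187 by edgeR, and 0.0705 at most with a library left out). Rrm1 had 31.7, 22.1 and 24.2 CPM in WT and 32.5, 45.3 and 44.1 CPM in sST2-KO, a log2 fold change of 0.64 (SE 0.22, adjusted p = 0.0764). Per kilobase of annotated exon, Rrm2 made up 42.5%, 51.1% and 32.0% of the summed level of both subunits in WT and 59.1%, 63.8% and 69.1% in sST2-KO. Its share was higher in each sST2-KO library than in any WT library. Which subunit makes the larger part depends on the lengths used, here all annotated exons, 11762 bp for Rrm1 and 3320 bp for Rrm2. In CPM, without division by length, Rrm1 was the higher one in every library. Tyms, the thymidylate synthase, had a log2 fold change of 0.97 (adjusted p = 0.0497), which is under the fold change of 2. Tk1, the thymidine kinase of the salvage route, had 1.36 (adjusted p = 0.0503), just outside the threshold.

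Among the G1/S genes, cyclin E1 and E2f1 were called higher by edgeR, and the other 6 did not pass. DESeq2 called Ccnd2 higher as well (log2 fold change 1.21, adjusted p = 0.0225 by DESeq2). Ccne1, on chromosome 7 from 37797404 to 37808264, had 1.21, 1.98 and 0.986 CPM in WT and 4.95, 4.98 and 8.10 CPM in sST2-KO, from 8 to 21 counts per WT library. The groups were far apart, with a log2 fold change of 2.09 (SE 0.40, adjusted p = 0.0175 by edgeR, and 0.0775 without WT replicate 3). Its paralog Ccne2 had a log2 fold change of 0.55 (95% interval -0.30 to 1.39, adjusted p = 0.317). The difference between the paralogs was not tested. E2f1 had 3.82, 3.11 and 2.59 CPM in WT and 5.99, 8.19 and 9.97 CPM in sST2-KO, a log2 fold change of 1.33 (SE 0.32, adjusted p = 0.0288, and at most 0.116 with a library left out). It kept its call in 2 of the 6 fits, those without WT replicate 1 or sST2-KO replicate 1. E2f2 had 12.6, 12.5 and 12.6 CPM in sST2-KO, all above its WT values of 10.7, 5.84 and 4.32 CPM, and did not pass, at 0.85 (adjusted p = 0.127). Cdk2, the kinase partner of cyclin E, had 30.5, 19.6 and 19.0 CPM in WT and 32.5, 22.2 and 25.4 CPM in sST2-KO. Its groups overlapped, with a log2 fold change of 0.21 (95% interval -0.38 to 0.81, adjusted p = 0.585).

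The D-type cyclins, which link growth signals to the cycle, had unlike values. Ccnd1 had 28.8, 23.9 and 27.1 CPM in WT and 23.4, 79.5 and 48.2 CPM in sST2-KO. Replicate 1 of the sST2-KO mice was at the WT level and replicate 2 far above it, and the log2 fold change of 0.92 did not pass (SE 0.40, adjusted p = 0.142). Ccnd2 had 26.6, 16.3 and 13.6 CPM in WT and 23.6, 48.8 and 59.8 CPM in sST2-KO, a log2 fold change of 1.22 (SE 0.39, adjusted p = 0.0642). It overlapped between the groups through the same sST2-KO replicate 1. Ccnd3 had 72.4, 86.8 and 84.2 CPM in WT and 84.2, 81.4 and 94.1 CPM in sST2-KO, a log2 fold change of 0.09 (95% interval -0.30 to 0.48, adjusted p = 0.723). Per kilobase of annotated exon, the WT levels were 5.57 ± 0.519 (SD, n = 3) for Ccnd1, 2.00 ± 0.730 for Ccnd2 and 8.78 ± 0.831 for Ccnd3, so that Ccnd3 was highest and the ranges of the neighbors in that order were apart. In sST2-KO these levels were 10.5 ± 5.88 for Ccnd1, 4.68 ± 1.97 for Ccnd2 and 9.36 ± 0.722 for Ccnd3 (SD, n = 3), and Ccnd1 and Ccnd3 differed by less than the spread.

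The 3 CDK inhibitors of the list did not pass the test in either direction. Cdkn1a, or p21, was the most abundant of the 48 genes per kilobase of exon, and had 469, 945 and 823 CPM in WT and 476, 686 and 409.6 CPM in sST2-KO. Its groups overlapped, with a log2 fold change of -0.51 (SE 0.34, 95% interval -1.30 to 0.28, adjusted p = 0.319 by edgeR). Cdkn1b, or p27, had 33.9, 21.8 and 18.2 CPM in WT and 41.4, 29.5 and 48.8 CPM in sST2-KO. Of its sST2-KO libraries, replicate 2 lay below the highest WT library, and the log2 fold change was 0.70 (SE 0.29, adjusted p = 0.129). Cdkn2c, or p18, had 26.9, 34.6 and 31.3 CPM in WT and 27.5, 35.5 and 25.3 CPM in sST2-KO, a log2 fold change of -0.07 (95% interval -0.54 to 0.39, adjusted p = 0.820). With total counts in place of TMM its sign turned, to 0.18.

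The rest of the pathway was taken from lists of 159 further cell cycle genes, of which 155 could be tested, and 62 were called higher and 1 lower. Over all genes tested, edgeR called 9.04% higher and 7.10% lower, and DESeq2 called 9.72% and 7.64% of those with an adjusted p. Of 68 other mitosis genes tested, 36 were called higher and 0 lower by edgeR (median on the log2 scale 1.44), and 1 had a lower value at an unadjusted p under 0.05 while DESeq2 called 43 higher and 0 lower. Incenp, the scaffold of the Aurora B complex, had 9.05, 10.7 and 7.15 CPM in WT and 22.1, 26.0 and 35.7 CPM in sST2-KO, a log2 fold change of 1.63 (adjusted p = 0.0148). Lmnb1, a lamin of the nuclear envelope, and Racgap1, which acts in cytokinesis, had log2 fold changes of 1.71 and 1.78 (adjusted p = 0.0150 and 0.0154). Pttg1, or securin, was the mitosis gene with the lower value and is named because its values stood out. It had 61.0, 66.0 and 66.2 CPM in WT and 49.8, 43.2 and 32.5 CPM in sST2-KO. All its sST2-KO libraries were below all WT libraries, with a log2 fold change of -0.62 that did not pass (SE 0.20, adjusted p = 0.0634). Of 47 other replication genes, 19 were called higher and 0 lower, with a median of 0.83, no lower value had an unadjusted p under 0.05, and DESeq2 called 19 higher and 0 lower. Chaf1b, a chromatin assembly factor, Rpa2, which binds single-stranded DNA, and Dnmt1, the maintenance DNA methyltransferase, had log2 fold changes of 2.10, 1.52 and 1.02 (adjusted p = 0.0136, 0.0139 and 0.0154). Their values did not overlap between the groups.

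Of 20 other G1/S genes tested, edgeR called 3 higher and 0 lower (median on the log2 scale 0.30), beside 9.04% called higher over all genes tested. No lower value had an unadjusted p under 0.05, and DESeq2 called 4 higher and 0 lower. These 3 were Cdk6, a kinase partner of the D-type cyclins, with 1.28, E2f8, an E2F factor that represses transcription, with 2.01, and Cks1b, a CDK subunit, with 1.06 (adjusted p = 0.0186, 0.0276 and 0.0435 by edgeR). Of 20 other inhibitors, p53 targets and checkpoint genes tested, 4 were called higher and 1 lower, beside 9.04% and 7.10% over all genes tested. The lower one was Cdkn1c, the imprinted CDK inhibitor p57, with 40.0, 29.4 and 56.0 CPM in WT and 10.5, 7.001 and 8.69 CPM in sST2-KO. Every sST2-KO library was well below every WT library, with a log2 fold change of -2.25 (SE 0.29, adjusted p = 0.0122 by edgeR, and 0.0517 without WT replicate 3). Gadd45b, a stress-induced gene, had 13.0, 13.1 and 9.12 CPM in WT and 89.1, 31.2 and 42.3 CPM in sST2-KO, a log2 fold change of 2.21 (adjusted p = 0.0166). Btg2, an antiproliferative p53 target, had a log2 fold change of 1.31 (adjusted p = 0.0183). Without WT replicate 3 none of the further genes named here had an adjusted p under 0.05, and Gadd45b also lost its call without WT replicate 2 (0.0509). Without WT replicate 2, WT replicate 3, sST2-KO replicate 2 or sST2-KO replicate 3, the further cell cycle genes called higher numbered 17, 0, 31 and 24. Among all genes tested, 391, 36, 1042 and 683 were called higher in the same fits.

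**Figure D5:**
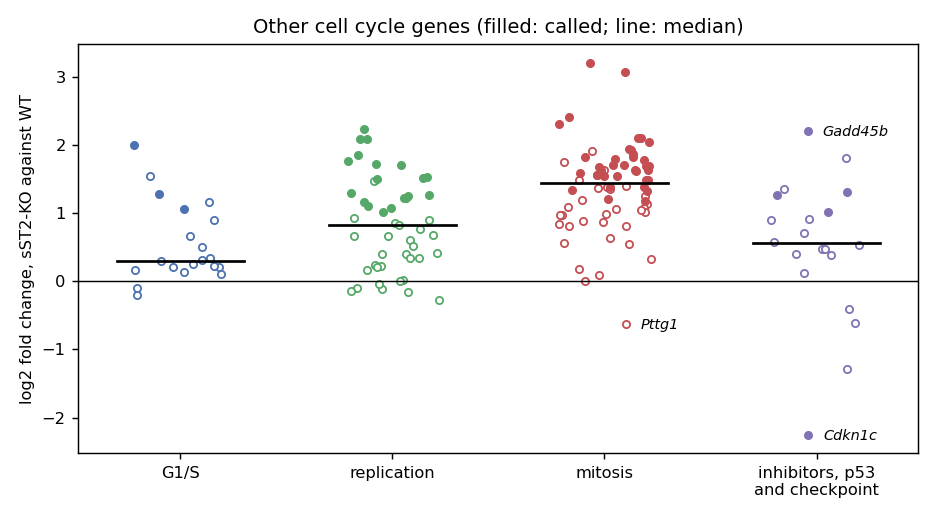
Log2 fold changes in sST2-KO against WT (y axis) of 155 further cell cycle genes in 4 lists, 1 point per gene, filled where called, with a line at the median of each list. The medians are 0.30 for G1/S, 0.83 for replication, 1.44 for mitosis and 0.56 for inhibitors, p53 targets and checkpoint genes, and Cdkn1c is the filled point below 0.

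Markers of several cell types moved with the genotype, as the proliferation genes did. For comparison, edgeR called 9.04% of all genes tested higher and 7.10% lower. Of 10 T cell markers tested, 8 were called higher, and their summed level was between 29.4 and 38.0 CPM in WT libraries and between 154.5 and 195 CPM in sST2-KO libraries. Of 7 NK cell markers, 6 were called higher, with sums of 28.0 to 50.1 CPM in WT. In sST2-KO their sums were 237 to 409 CPM, the lowest in replicate 3. Of 13 macrophage markers, 3 were called higher, with sums of 979 to 1336 CPM in WT and 1716 to 7045 CPM in sST2-KO, the highest in replicate 3, which also had the highest mitosis mean. Neutrophil markers were called higher in 3 of 9, with sums of 31.6 to 150.3 CPM in WT and 152 to 713 CPM in sST2-KO. The B cell list had 1 of 3 tested genes called higher and sums of 1.59 to 4.32 CPM in WT and 5.93 to 8.79 CPM in sST2-KO, with Pax5 at 0 in 2 WT libraries and 1 sST2-KO library. Among resident cells, 0 of 10 progenitor and fibroblast markers were called by edgeR, with 1 higher and 1 lower at an unadjusted p under 0.05 and 1 called lower by DESeq2. Their sums were 2877 to 7225 CPM in WT and 2096 to 11911 CPM in sST2-KO, the highest in replicate 3. Of 9 endothelial markers, 1 was called higher and 1 lower. Their sums overlapped, at 1336 to 1710 CPM in WT and 1247 to 2223 CPM in sST2-KO, where replicate 3 was lowest. Of 9 markers of all adipocytes, 1 was called lower by edgeR and 3 by DESeq2, while 8 had a negative fold change and 5 of these an unadjusted p under 0.05. Their sums did not overlap, at 19955 to 25680 CPM in WT and 7819 to 13932 CPM in sST2-KO. All 5 erythroid markers tested were called lower, with sums of 484 to 1585 CPM in WT and 11.1 to 107 CPM in sST2-KO. Schwann cell markers had 2 of 5 called lower, with sums of 81.3 to 95.5 CPM in WT and 27.6 to 57.7 CPM in sST2-KO. Which of these cells carried the proliferation transcripts was not tested.

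Scaling moved the size of the changes. With total counts in place of TMM, the median log2 fold change of all genes tested moved from 0.034 to 0.29, and the share of higher genes among all called genes from 56.0% to 72.7%. On that scale 35 of the 48 proliferation genes were called higher, where 12.7% of all genes tested were, among them 21 mitosis genes, 11 replication genes and 3 G1/S genes, and the order of the phases stayed the same.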

How the data were processed

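BAT from 3 WT and 3 sST2-KO mice was measured by poly-A-selected, paired-end RNA-seq with 150 bp reads. The authors checked the reads with FastQC (0.12.1 in the submitters' processing notes), aligned them to mm39 with HISAT2 (2.2.1) and counted them on genes with htseq-count. The deposited table holds raw counts per gene symbol, without normalization, and its 0 further columns of values leave nothing unused. Samples were grouped by their titles. For 27 rows the symbol reads as a date, and these rows were kept. Of the 35976 rows, 11377 have no count.

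Counts were filtered with filterByExpr, scaled by TMM and tested in R 4.3.3 with edgeR 4.0.16 (glmQLFit and glmQLFTest, two-sided, no covariate), with Benjamini-Hochberg adjustment over 14542 genes. The standard error is the log2 fold change divided by the square root of F, and 95% intervals use the moderated degrees of freedom. The paper's methods compare the same groups with DESeq2 and select changes above 2-fold. Mean log2 CPM values use a prior count of 2. The smallest p of an exact permutation of 3 mice against 3 is 0.1, so no such test was run. Alternatives were robust estimation, scaling by RLE or by total counts, a filter of 10 counts in each library or none, DESeq2 1.42.0, the replicate number as a block, no minimum fold change and each library left out. No library repeated another, as pairs within a group gave chi-square values over degrees of freedom from 40.1 to 114. On simulated counts with 4-fold changes, edgeR recovered 74.6% of 197 changed genes among 14297 tested, with 13 false calls. On the same counts DESeq2 recovered 87.5% of 200 changed genes among 14542 tested, with 65 false calls.

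The 48 genes and all lists were chosen with earlier results of these data known. Full values were given by rule to the D-type cyclins, the CDK inhibitors, Mki67, Pcna, Top2a and, in each role, the genes with the largest and smallest fold changes, the lowest adjusted p and the highest CPM, and further genes were named for their place in a complex. From each further list, the 3 called genes with the lowest adjusted p and those called against their list were named. Of the 159 further genes, 4 were matched by an older symbol. Trac, Trbc1, Trbc2 and Ighm were not analysed here. Exon lengths are unions over GENCODE vM39 on GRCm39. Figures were drawn with matplotlib 3.10.9.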

Additional observations from a re-analysis of the deposited data

How the results depend on the processing

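The proliferation genes called higher (30) and the genes called higher and lower among all tested (1315 and 1033) stayed within 1.5 times of these counts with robust estimation, RLE or total-count scaling, a stricter filter or none, DESeq2 and no minimum fold change, and 0 of the 48 were called lower in any fit. With a library left out, the 48 genes gave 1 to 31 higher calls, all genes 36 to 1383 higher and 22 to 998 lower, and the further cell cycle genes, whose alternatives were added after the values were seen, 0 to 55 higher and 0 to 1 lower. Fewest calls were left without WT replicate 3, a fit in which 34 of the 48 still had an unadjusted p under 0.05. The cause was not tested. A replicate block by label number gave 0 calls in each of these counts, among the 48, the further genes and all genes, while 36 of the 48 and 4623 of all genes had an unadjusted p under 0.05. Libraries of equal number deviated from their group means with correlations of -0.058, 0.21 and -0.31, and the numbers were not taken to pair the mice. The median log2 fold change of the replication genes moved from 1.09 to 1.36 with total counts, which also moved the median of all genes by construction. The medians of mitosis and G1/S genes stayed within the spread between replicates in every fit. Among single genes, Cdkn2c turned from -0.07 to 0.18 with total counts, to 0.013 without WT replicate 2 and to 0.020 without sST2-KO replicate 3, and lay between -0.25 and 0.020 with a library left out. The other 47 kept their direction in every fit they entered. Depth limits Ccne1, Bub1, Cenpe and Cenpf, which had under 10 counts in at least 1 WT library.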
